A study of Mus musculus with 8 samples.

Results

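Sp140, C130026I21Rik and A530040E14Rik are 3 genes within 750 kb of mouse chromosome 1 whose calls were examined together in a NOMe-seq study of fibroblast reprogramming. Each locus was taken as the annotated gene in mm10 with 1 kb on either side, and all sites in it were pooled per library as methylated reads over reads. The 3 genes are of 34610 in the annotation used, and their loci hold 7835 of the 5676562 site records in the 8 libraries, 3748 at Sp140, 3566 at C130026I21Rik and 521 at A530040E14Rik. The remainder of chr1:85000000-85750000, with 5411 site records, served as their neighbourhood. The loci were chosen on these same data. A530040E14Rik had stood out by its day 1 minus day 0 change in treated net of untreated libraries, and the loci were known to be read deeply, so both of those measures are given below as description without a test.

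The libraries came from mouse embryonic fibroblasts (MEFs), as 2 of day 1 of reprogramming induced by Etv2 with the enzyme M.CviPI, 2 of control cells (day 0) with the enzyme, 2 of day 1 without it and 2 of day 0 without it. They are called treated and untreated for the enzyme, not for Etv2. How Etv2 was delivered, and whether replicates were separate cultures, is not given in the sources used here, so the spread between these libraries may be technical. The p-values of the fits below rest on a spread estimated jointly from all 4 groups and moderated over all gene loci. They do not measure the spread between replicates at 1 gene alone. Across the genome each library listed 439527 to 1012656 sites and 1693307 to 3577740 calls, a call being 1 read over 1 site, with a median of 3 reads per site. The day 1 libraries were the deeper ones with and without the enzyme.

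M.CviPI adds methyl groups to GpC cytosines in stretches of DNA free of nucleosomes and bound factors. Bisulfite conversion then makes that mark readable, so that a higher level in treated libraries is taken as more accessible DNA. Sp140 encodes a nuclear protein of the SP100 family, whose members carry a SAND domain and, in several, a PHD finger and a bromodomain that bind chromatin. Sp100 is a component of PML nuclear bodies, Sp140 is expressed mainly in immune cells, where in mice it restrains type I interferon responses, and Sp110 lies in a region of mouse chromosome 1 known for resistance to intracellular bacteria. The same stretch of the mouse genome is known for repeated copies of SP100-family sequence. A530040E14Rik is annotated as a long non-coding RNA and C130026I21Rik as a protein-coding gene.

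Sp140 spans chr1:85587491-85645040 and overlaps Sp110 (chr1:85570735-85610850). C130026I21Rik spans chr1:85241286-85282883 and lies wholly within Gm38510 (chr1:85155201-85309015). A530040E14Rik spans chr1:85106093-85114038 and overlaps A530032D15Rik (chr1:85088139-85110297), whose start site at chr1:85109853 lies inside it. Sites in such overlaps count for both genes, and the annotation used gives no exons or UTRs, so that positions are described only as inside or outside a gene. The neighbourhood holds 20 annotated genes, of which 9 are pseudogenes.

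Promoter windows of 250 bases before to 50 bases after each start are shown because those in and around the loci repeat one another almost letter for letter. They come from RefSeq on GRCm38.p6, each written 5′ to 3′ on its gene's own strand, and capitals mark the GC of each GCA, GCC or GCT on either strand, the contexts in which calls were found. The windows are Sp140 at chr1:85600453-85600752 on the plus strand, C130026I21Rik at chr1:85270517-85270816 on the minus strand, A530032D15Rik at chr1:85109804-85110103 on the minus strand, and A530040E14Rik itself at chr1:85105843-85106142 on the plus strand. Those of Sp140, C130026I21Rik and A530032D15Rik lie wholly inside the annotated genes.
Sp140: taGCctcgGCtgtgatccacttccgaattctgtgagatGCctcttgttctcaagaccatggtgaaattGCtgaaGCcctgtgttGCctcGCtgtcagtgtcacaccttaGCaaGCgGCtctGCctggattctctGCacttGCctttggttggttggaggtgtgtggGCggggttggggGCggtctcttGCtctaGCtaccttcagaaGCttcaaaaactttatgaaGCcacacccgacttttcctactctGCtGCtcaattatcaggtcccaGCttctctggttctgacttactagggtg
C130026I21Rik: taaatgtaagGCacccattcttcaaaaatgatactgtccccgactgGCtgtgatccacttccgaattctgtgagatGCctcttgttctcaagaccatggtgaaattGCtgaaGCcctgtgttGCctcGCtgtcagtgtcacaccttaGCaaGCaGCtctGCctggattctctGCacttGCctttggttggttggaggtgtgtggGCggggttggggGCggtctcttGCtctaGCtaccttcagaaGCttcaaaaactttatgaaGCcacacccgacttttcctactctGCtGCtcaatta
A530032D15Rik: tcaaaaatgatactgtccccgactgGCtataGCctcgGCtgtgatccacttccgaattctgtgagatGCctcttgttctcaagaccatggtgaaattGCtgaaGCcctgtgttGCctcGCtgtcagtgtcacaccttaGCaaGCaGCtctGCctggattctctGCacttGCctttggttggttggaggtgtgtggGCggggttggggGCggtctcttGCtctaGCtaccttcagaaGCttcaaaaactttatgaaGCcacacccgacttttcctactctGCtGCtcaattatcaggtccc
A530040E14Rik: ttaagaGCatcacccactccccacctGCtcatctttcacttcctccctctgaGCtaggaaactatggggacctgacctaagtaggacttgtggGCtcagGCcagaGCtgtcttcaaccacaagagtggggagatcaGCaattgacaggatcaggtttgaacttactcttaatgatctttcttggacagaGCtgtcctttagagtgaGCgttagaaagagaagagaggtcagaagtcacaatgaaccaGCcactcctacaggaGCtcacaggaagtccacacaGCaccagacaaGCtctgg

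The first 3 windows share nearly all their letters in local alignment. C130026I21Rik and Sp140 aligned over 255 bases with 254 identical, the exception being A154G (position counted from 1 at the 5′ end of the C130026I21Rik window, whose base comes first). A530032D15Rik and Sp140 aligned over 271 bases with 270 identical, the exception being A145G, counted in the A530032D15Rik window. A530032D15Rik and C130026I21Rik aligned with 279 identical bases, no mismatch and 12 gap bases. The promoter of A530040E14Rik itself did not belong to this group, with 46 identical bases in 78 aligned columns against Sp140. How reads from such copies were placed or discarded is not given in the sources used here, so values of these genes are uncertain to the extent that reads were shared between copies, and the share was not tested.

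The promoter letters also show the base context of the calls that fall in them. Every listed site inside the 32815 distinct promoter windows genome-wide, 7176 to 11407 sites per library, was the C of a GCA, GCC or GCT trinucleotide (written GCH) on one or the other strand (100%), so no site in these windows lay in GCG, where the cytosine is also part of a CpG. Context outside promoter windows, where most calls of the 3 loci lie, was not read. Such a trinucleotide is common. Counted over both strands, it occurs in 32812 of those 32815 windows, with a median of 34 per window, while sites were listed in any library in 39.4% of windows. The Sp140 window has 40 such trinucleotides over both strands and no listed site. That of A530040E14Rik has 25 and that of A530032D15Rik 41, also with none. The C130026I21Rik window has 39, of which 11 positions were listed in 4 of the 8 libraries. There the second day 1 treated library had 2 methylated of 12 reads, while the untreated libraries with sites had 0 of 31 and 0 of 44 reads on day 1 and 0 of 6 in the second of day 0.

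Calls lay in blocks rather than evenly. Sp140 carried 5.32 to 10.3 sites per kb across the 8 libraries, C130026I21Rik carried 6.67 to 15.3 and A530040E14Rik 2.01 to 11.5. The remainder of the neighbourhood carried 0.495 to 1.58 sites per kb. Reads per site ranged from 4.38 to 5.89 at Sp140, from 3.75 to 4.60 at C130026I21Rik, from 3.10 to 4.14 at A530040E14Rik and from 3.54 to 4.01 in the remainder. Sp140 and C130026I21Rik were therefore denser in sites than the remainder in every library, as was A530040E14Rik. The remainder, however, includes long stretches of few reads.

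**Figure D1:**
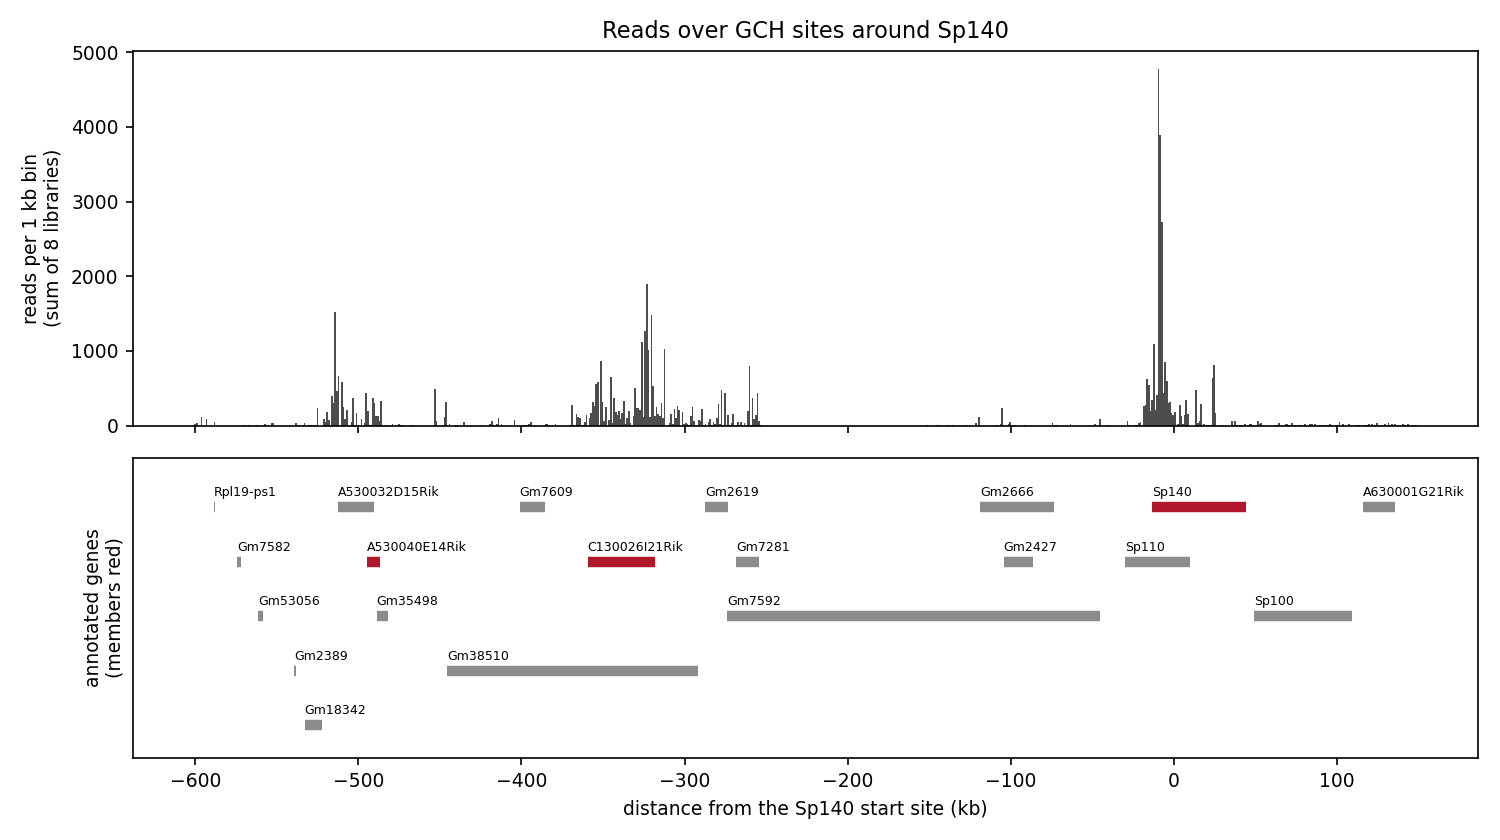
Upper panel, reads over listed sites per 1 kb bin, summed over the 8 libraries, by distance in kb from the Sp140 start site; lower panel, the annotated genes on the same axis with the 3 loci in red. The tallest bins lie in Sp140, before that start. Blocks of reads also stand in and around the other loci, with long stretches of few reads between them.

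Averaged over libraries, Sp140 had 5.32 reads per site and ranked 45 among the 5654 gene loci with at least 20 calls in every library, whose median was 3.10. C130026I21Rik had 4.28 and ranked 57, and A530040E14Rik had 3.71 and ranked 80. In sites per kb the averages were 7.87, 10.2 and 6.55 in that order of genes, against a median of 0.557 over all loci. By those ranks other loci had more reads per site, so this trait was not particular to the 3 loci. The genes that overlap them share reads with them, so their values are not separate observations. Sp110 had 5.29 reads per site and 10.8 sites per kb, Gm38510 4.10 and 3.95, and A530032D15Rik 4.05 and 5.37. Gm7592, which overlaps none of them, had 3.59 and 0.505. No site of the 3 loci had more than 19 reads, so the depth is spread over many positions and not piled on a few. Because depth was one of the measures that drew attention to these loci, its rank is not tested.

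**Figure D2:**
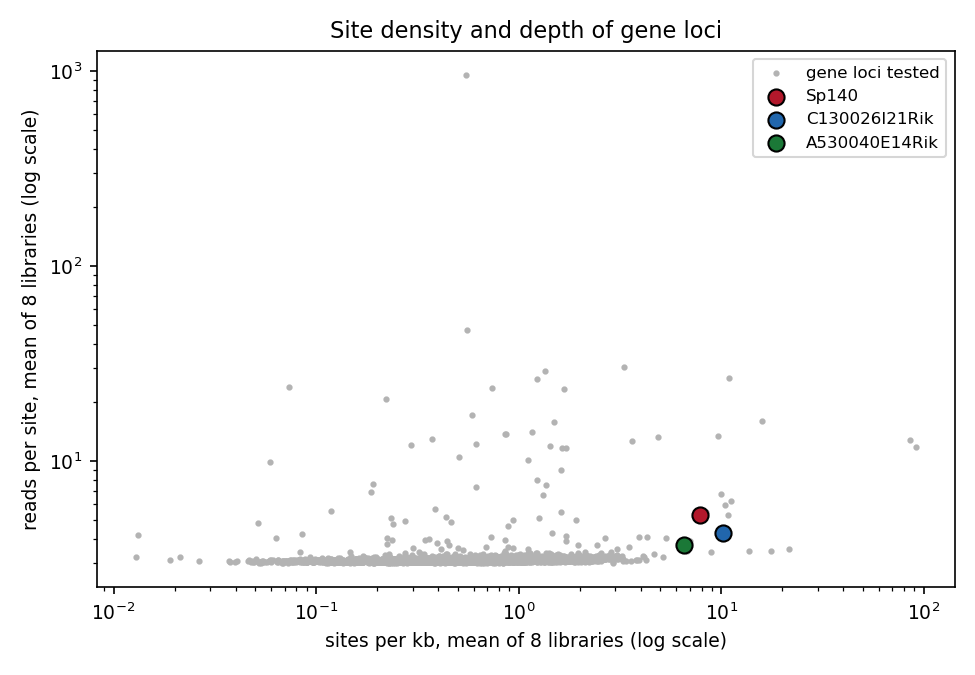
Mean reads per site (y axis, log scale) against mean sites per kb (x axis, log scale) over the 8 libraries for each of 5654 gene loci (grey points), with the 3 loci in colour. Most loci lie in a band near the median of 3.10 reads per site, and the 3 loci lie above it and to its right.

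The libraries also sampled the same positions more often there. Of 1073 distinct positions listed at Sp140, 100 were listed in all 8 libraries (9.32%). The figure was 31 of 1316 at C130026I21Rik (2.36%) and 3 of 194 at A530040E14Rik (1.55%). In the remainder of the neighbourhood it was 13 of 2733 positions (0.476%).

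With the enzyme, 22.7 to 28.8% of the reads at the 3 loci were methylated, and without it 0 to 3.23%. At Sp140 the day 1 treated libraries had 26.9% methylated of 3289 reads (95% Clopper-Pearson interval 25.4 to 28.5) and 26.3% of 3064 (24.7 to 27.9), and the day 0 treated libraries 25.1% of 2001 (23.2 to 27.1) and 25.8% of 2019 (23.9 to 27.7). The day 1 untreated libraries had 1.02% (36 of 3513 reads) and 0.681% (23 of 3377), and those of day 0 had 1.497% (22 of 1470) and 3.03% (48 of 1583). Treated and untreated libraries of Sp140 were far apart on both days, and the 4 treated libraries spanned less than 2 percentage points. The intervals cover counting error only, as neighbouring sites share reads.

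C130026I21Rik lay at almost the same levels. Its treated libraries had 27.6% of 2406 and 25.1% of 2323 reads methylated on day 1, and 25.9% of 1349 and 24.5% of 1265 on day 0. Its untreated libraries had 1.14% (30 of 2630) and 0.621% (19 of 3060) on day 1, and 1.07% (12 of 1122) and 2.67% (35 of 1313) on day 0. The treated days overlapped at this locus, as did the untreated days.

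A530040E14Rik rests on far fewer reads. Its treated libraries had 24.6% (103 of 418 reads) and 24.7% (75 of 304) on day 1, and 28.8% (78 of 271, interval 23.5 to 34.6) and 22.7% (34 of 150, interval 16.2 to 30.2) on day 0. Its untreated libraries had 0 of 241 reads and 0.227% (1 of 441) on day 1, and 2.78% (3 of 108) and 3.23% (2 of 62) on day 0. The 0 of 241 reads allow a level of up to 1.24% with a limit of 3 reads, or 1.52% by the Clopper-Pearson interval. The day 1 treated libraries fell between those of day 0, and the untreated libraries of day 1 lay below those of day 0 on 6 methylated reads in all.

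**Figure D3:**
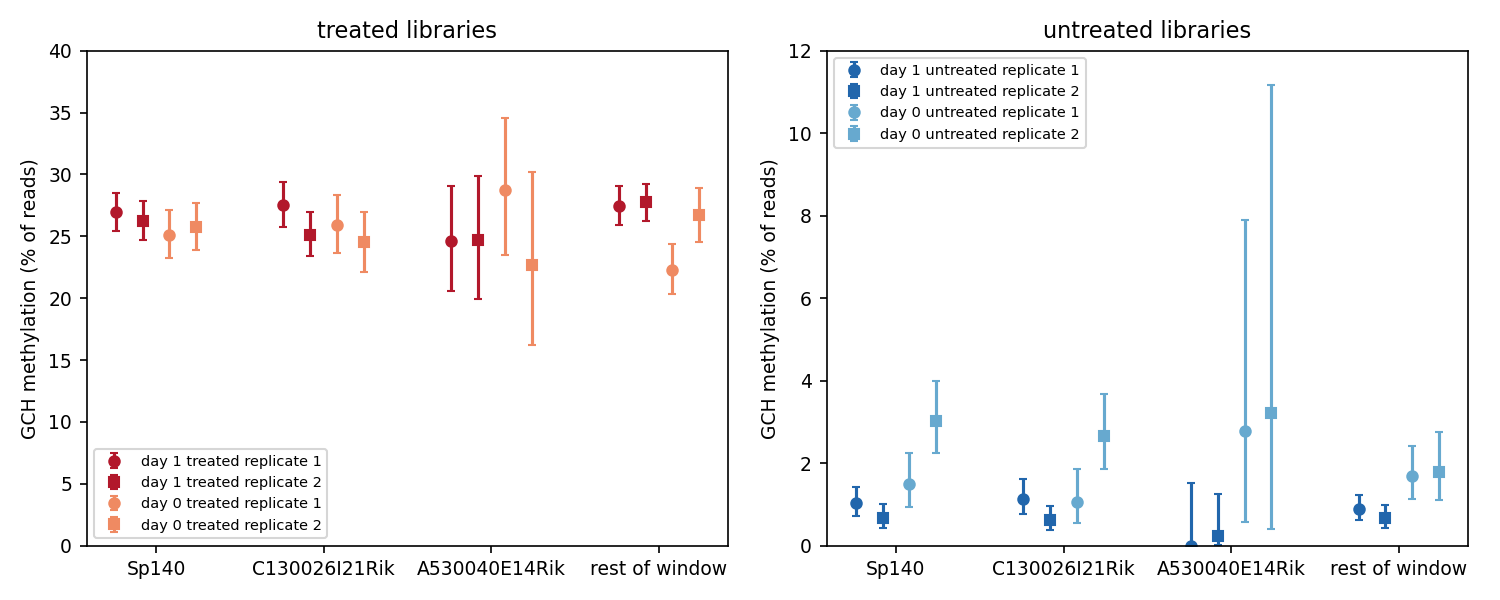
Methylated reads as a percentage of reads at each locus and in the remainder of the neighbourhood, with treated libraries in the left panel and untreated ones in the right, on different y axes. Points are single libraries and bars 95% Clopper-Pearson intervals; treated libraries lie at 22.3 to 28.8% and untreated ones at 0 to 3.23%.

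The enzyme raised the level at Sp140 and C130026I21Rik on both days, and all treated libraries of A530040E14Rik lay above its untreated ones. In edgeR's quasi-likelihood fit over 5654 gene loci, an effect is the difference in log2 odds (methylated over unmethylated reads). The day 1 difference between treated and untreated libraries was 5.39 ± 0.21 (SE) at Sp140 (edgeR Benjamini-Hochberg adjusted p = 1.04e-142) and 5.35 ± 0.23 at C130026I21Rik (adjusted p = 1.26e-120). On day 0 it was 3.87 ± 0.21 at Sp140 (edgeR adjusted p = 1.53e-73) and 4.11 ± 0.24 at C130026I21Rik (adjusted p = 4.96e-65). At A530040E14Rik it was 7.39 ± 0.72 on day 1 and 3.49 ± 0.65 on day 0, values given without a test because their difference is the contrast that singled this gene out. The call is nearly universal, with 99.9% of loci called higher on day 1 and 98.8% on day 0, so it says nothing particular about these genes. The median over all loci was 5.51 on day 1 and 4.38 on day 0.

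In percentage points, treated minus untreated was 25.8 at Sp140, 25.5 at C130026I21Rik and 24.5 at A530040E14Rik on day 1, and 26.8 in the remainder of the neighbourhood. On day 0 it was 23.2, 23.4, 22.7 and 22.8 in that order. The 3 loci sat in the lower part of all loci in treated libraries: the mean level of Sp140 was at the 20.4 percentile on day 1 and the 26.0 percentile on day 0, that of C130026I21Rik at 18.7 and 24.6, and that of A530040E14Rik at 10.4 and 27.9, against medians over loci of 30.2% and 28.8%. These ranks are a description, as most loci have fewer reads and a wider scatter.

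Methylation was spread over the sites rather than held by a few. At Sp140, 0.526 to 1.25% of sites in treated libraries had every read methylated and 22.8 to 28.4% had none. At C130026I21Rik 27.3 to 36.2% of sites had none, and at A530040E14Rik 31.7 to 37.0%. With 3 to 19 reads at a site, most sites showed a mixture.

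The loci were set against the remainder of the neighbourhood within the same library. Over the 4 treated libraries Sp140 differed by -0.02 ± 1.94 points (SD, n = 4; exact two-sided sign-flip permutation p = 1) and was lower in 3 of 4. C130026I21Rik differed by -0.26 ± 2.86 points (n = 4, exact p = 1), lower in 2 of 4, and A530040E14Rik by -0.86 ± 4.92 points (n = 4, exact p = 0.75), lower in 3 of 4. Over the 4 untreated libraries the differences were 0.30 ± 0.64 points for Sp140 (n = 4, exact p = 0.625), 0.11 ± 0.62 for C130026I21Rik (n = 4, exact p = 0.75) and 0.30 ± 1.13 for A530040E14Rik (n = 4, exact p = 0.625). With 4 libraries the smallest exact p is 0.125, so this test cannot reach 0.05 and does not show that the levels were alike. The untreated mean of A530040E14Rik joins -0.89 and -0.44 points on day 1 with 1.09 and 1.43 on day 0.

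Accessibility at these loci was not shown to differ between the days. Treated libraries of Sp140 averaged 26.6% ± 0.471 (SD, n = 2) on day 1 and 25.4% ± 0.437 (n = 2) on day 0, a difference of 1.16 points. C130026I21Rik averaged 26.3% ± 1.71 on day 1 and 25.2% ± 1.02 on day 0, and A530040E14Rik 24.7% ± 0.0211 and 25.7% ± 4.32 (SD, n = 2 each). The remainder of the neighbourhood averaged 27.6% ± 0.216 and 24.5% ± 3.11. At Sp140 both day 1 libraries exceeded both day 0 libraries, and their counting intervals overlapped.

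In log2 odds the day 1 minus day 0 difference in treated libraries was 0.09 ± 0.16 (SE) at Sp140 and 0.08 ± 0.18 at C130026I21Rik (edgeR adjusted p = 0.999 for both). At A530040E14Rik it was -0.11 ± 0.39, given as a value only because it is an arm of the contrast that singled this gene out. The median over all loci was 0.10. No locus was called, so the background is 0%; 175 of 5654 loci had an unadjusted p under 0.05 in edgeR, and limma called 0 with 70 under that level. On simulated data with the same coverage, the treated day comparison recovered 53% of 200 loci changed by 2 on the log2 odds scale. The simulation took an SD of 0.3, on a natural log scale, as given. That share is over all changed loci, while Sp140 and C130026I21Rik were among the most deeply read. It therefore does not say how large a change could have been detected at these genes.

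**Figure D4:**
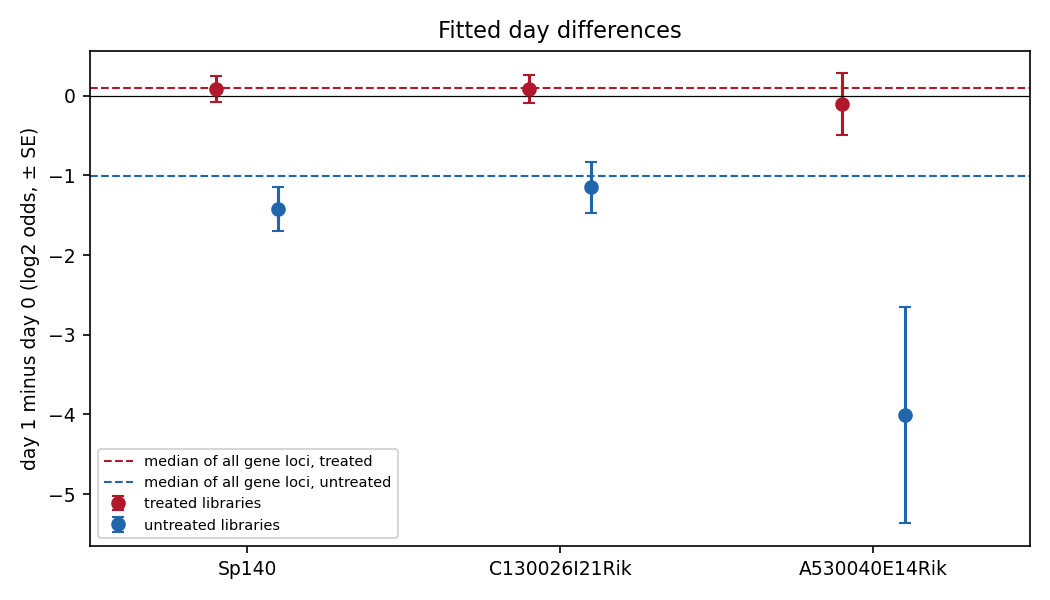
Day 1 minus day 0 difference in log2 odds of methylation (points, with standard errors) at the 3 loci in treated and in untreated libraries, with the median of all 5654 loci. In treated libraries the loci lie at -0.11 to 0.09 and the median at 0.10, and in untreated libraries at -4.01 to -1.15 with the median at -1.01.

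Without the enzyme, Sp140 and C130026I21Rik fell on day 1 together with most of the genome. Sp140 averaged 0.853% ± 0.243 on day 1 and 2.26% ± 1.09 on day 0 (SD, n = 2 each), a log2 odds difference of -1.43 ± 0.28 (SE, edgeR adjusted p = 1.94e-04). C130026I21Rik averaged 0.881% ± 0.368 and 1.87% ± 1.13, a difference of -1.15 ± 0.32 (edgeR adjusted p = 0.0191). Over all loci 3.78% were called lower, 214 of 5654, and the median difference was -1.01, so both genes lay near the middle of the whole distribution, at the 38.0 and 45.4 percentiles. Both were also among the most deeply read of the loci tested, as given above.

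Those untreated calls were lost when the shift of all loci was removed, and they depended on single untreated libraries. Leaving out each library in turn, the difference ran between -1.85 and -0.82 at Sp140 and between -1.65 and -0.31 at C130026I21Rik. With each library centred on its median the differences were -0.39 at Sp140 (edgeR adjusted p = 0.743) and -0.12 at C130026I21Rik (adjusted p = 0.966), and 0.212% of loci were called. Without the second day 0 untreated library they were -0.82 (edgeR adjusted p = 0.306) and -0.31 (adjusted p = 0.778). Without the second day 1 untreated library C130026I21Rik was at -0.75 (edgeR adjusted p = 0.226), and in limma it was at -1.04 (adjusted p = 0.0578). With at least 5 reads per site the differences were about as large, -1.28 at Sp140 (edgeR adjusted p = 0.0662) and -1.33 at C130026I21Rik (adjusted p = 0.197), with wider errors.

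A530040E14Rik had the larger untreated difference, described here without a test. Summed over libraries, 1 of 682 untreated reads was methylated on day 1 (0.147%) and 5 of 170 on day 0 (2.94%). The ratio was 0.0499, with a wide interval of 0.0011 to 0.45. The fitted log2 odds difference was -4.01 ± 1.36 (SE), at the 3.43 percentile of all loci. Net of the untreated libraries, the day 1 minus day 0 difference of the treated ones was 3.90 ± 1.41 at A530040E14Rik, 1.51 ± 0.32 at Sp140 and 1.24 ± 0.37 at C130026I21Rik, with a median of 1.10 over all loci. Without the second day 0 untreated library the net value was 0.90 at Sp140 and 0.40 at C130026I21Rik, and with libraries centred 0.39 and 0.11. Without the second day 1 untreated library it was 0.83 at C130026I21Rik. As the treated level of A530040E14Rik differed between the days by -1.07 points and its untreated level by -2.89 points, the net value of this gene is carried by 6 methylated reads.

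Reads at Sp140 were concentrated in a 3 kb block, chr1:85591001-85594000, which also lies inside Sp110. Its 1 kb bins held 23.5%, 19.2% and 13.4% of all Sp140 reads, and per library the block held 49.0 to 70.4%, at 4.88 to 7.77 reads per site. Its treated level was 25.5% ± 0.0657 on day 1 and 25.6% ± 0.488 on day 0 (SD, n = 2 each), and its untreated level 1.09% ± 0.431 and 2.65% ± 1.21. Outside the block the treated level of Sp140 was 27.9% ± 0.896 on day 1 and 25.2% ± 0.390 on day 0. The days overlapped in treated libraries where the reads were deepest, and outside the block both day 1 libraries lay above both day 0 libraries.

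The overlap with Sp110 weighs on Sp140 as a whole. Between 83.3% and 89.2% of Sp140 reads in each library fell in the part shared with Sp110, so the values of these genes are largely the same reads. In the part of Sp140 beyond Sp110, treated libraries had 31.2% of 480 and 25.6% of 511 reads methylated on day 1, and 23.0% of 244 and 25.4% of 240 on day 0. Untreated libraries there had 0 of 438 and 0.622% of 482 reads on day 1, and 1.03% of 194 and 1.17% of 171 on day 0. Both treated day 1 libraries lay above both of day 0 there, on fewer reads.

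**Figure D5:**
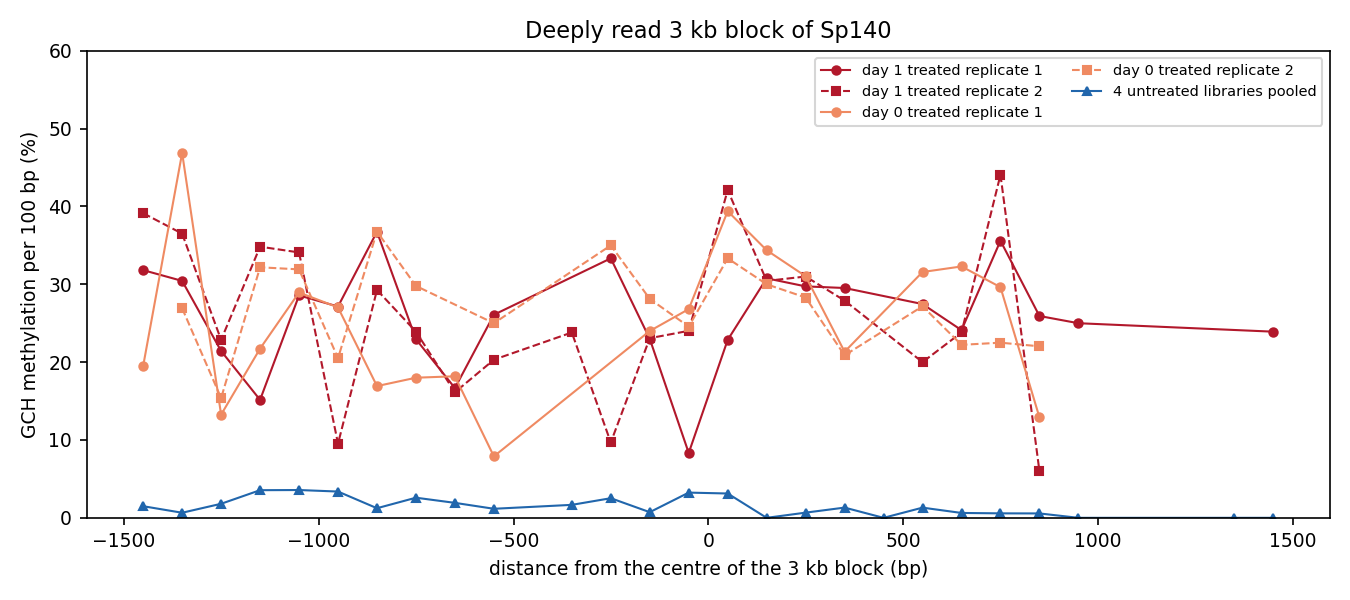
Methylated reads as a percentage of reads in 100 bp bins of the 3 kb block of Sp140, by distance in bp from the block's centre, for each treated library and for the 4 untreated libraries pooled; treated bins with fewer than 20 reads in a library are not drawn. The treated lines cross repeatedly, and the pooled untreated line stays near 0.

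Within Sp140, 22 bins of 100 bp had at least 20 reads in each treated library. Their mean treated levels ran between 16.7%, at chr1:85593301-85593400, and 35.2%, at chr1:85591101-85591200, with a median of 27.3%. Across these bins Pearson's r between the day 1 treated libraries was 0.27 and between the day 0 treated libraries -0.09, and it ran between -0.09 and 0.44 over all pairs. Spearman's correlation was 0.38 between the day 1 treated libraries and 0.0051 between those of day 0. Its highest value was 0.51, between the second treated libraries of day 1 and day 0. These values describe 22 neighbouring bins that share reads and libraries. Whether the replicates shared a peak or trough of accessibility was not tested. C130026I21Rik had 6 such bins at 19.2 to 27.7%, and A530040E14Rik had 2, at 26.4% and 30.0%.

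Around start sites the reads were fewer still. The starts used for Sp140 and C130026I21Rik lie inside the annotated genes. Sp140, on the plus strand, is annotated from chr1:85587491, and C130026I21Rik, on the minus strand, from chr1:85282883. The deep block of Sp140 and the deepest bins of C130026I21Rik lie before those starts. Within 1000 bp of the Sp140 start at chr1:85600703, treated libraries had 29.6% of 27 and 33.3% of 39 reads methylated on day 1, and 27.3% of 33 on day 0, while the second day 0 treated library had no site there. Around the C130026I21Rik start at chr1:85270566 they had 29.3% of 82 and 29.9% of 134 on day 1, and 36.4% of 44 and 22.2% of 18 on day 0. Around the start of A530032D15Rik, inside A530040E14Rik, they had 20.2% of 129 and 20.7% of 121 on day 1, and 24.3% of 107 and 44.4% of 18 on day 0. Around the start of A530040E14Rik itself they had 29.9% of 147 and 28.7% of 101 on day 1, and 30.4% of 56 and 23.4% of 77 on day 0. The days overlapped at the starts of C130026I21Rik and A530040E14Rik, and day 0 was higher in both libraries at that of A530032D15Rik, on 18 reads in one of them.

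Some positions had methylated reads without the enzyme. At Sp140, 101 of 870 positions listed in untreated libraries had any methylated read, 129 reads in all. At C130026I21Rik it was 71 of 1016 positions with 96 reads, and at A530040E14Rik 5 of 154 with 6 reads. Most of these were single reads at scattered positions.

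One position in Sp140 and 1 in C130026I21Rik were methylated in every untreated library, and both were singled out after their values were seen. At chr1:85592424, in the deep block, 9 of 21 untreated reads were methylated (42.9%, Clopper-Pearson interval 21.8 to 66.0): 4 of 7 and 1 of 3 on day 1, and 3 of 5 and 1 of 6 on day 0. With the enzyme it had 4 of 10 and 5 of 10 on day 1 and 6 of 10 in the first day 0 library. The 16 positions listed in untreated libraries within 50 bp had 6 of 397 untreated reads methylated (1.51%). At chr1:85257267, in C130026I21Rik, 10 of 21 untreated reads were methylated (47.6%, interval 25.7 to 70.2): 3 of 5 and 2 of 3 on day 1, and 1 of 4 and 4 of 9 on day 0, while 2 listed positions within 50 bp had 0 of 39.

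Such positions are not particular to these loci. Of 11105 positions listed in all 4 untreated libraries genome-wide, 353 were methylated in each of them (3.18%), against 1 of 159 at Sp140 (0.629%), 1 of 74 at C130026I21Rik (1.35%) and 0 of 3 at A530040E14Rik.

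Of the annotated genes in the neighbourhood, 9 had 20 calls in every library. The pseudogenes Gm2619 and Gm7281 were not part of the fit, which left 7 with the 3 loci among them. A530040E14Rik is left out of the calls that follow, as its values are given without a test. All others of the 7 were called higher with the enzyme on both days, beside 99.9% of all loci on day 1 and 98.8% on day 0. In treated libraries 0 of them differed between the days, beside 0% of all loci. In untreated libraries 4 were called lower on day 1, beside 3.78% of all loci, and Sp140 and C130026I21Rik were not called once libraries were centred. Those 4 were Sp140, C130026I21Rik, Sp110 at -1.36 (edgeR adjusted p = 3.46e-04) and Gm38510 at -1.24 (adjusted p = 0.00285). Sp110 holds most of the reads of Sp140 and Gm38510 holds C130026I21Rik whole, so these are not separate observations. A530032D15Rik was at -1.11 (edgeR adjusted p = 0.401) and Gm7592 at -1.19 (adjusted p = 0.336). Sp100, the gene for which the family is named, had 12 calls in its lowest library and was not tested.

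A wider list of the SP100 family and of PML nuclear body components held 17 symbols. Of these, 15 matched a symbol or synonym in the annotation and 5 had enough calls. Sp140l1 and Sp140l2 matched no name, and whether these genes stand in the annotation under other names was not examined. Daxx, a histone H3.3 chaperone, Sumo3, a small protein attached to nuclear body components, and Hipk2, a nuclear kinase, joined Sp110 and Sp140. All 5 were called higher with the enzyme on both days, beside 99.9% and 98.8% of all loci on day 1 and day 0, and 0 differed between the days in treated libraries, as at all loci. Without the enzyme Sp110 and Sp140 were lower on day 1, 2 of 5 beside 3.78% of all loci, and as they share reads they count as about 1 observation. Hipk2 was at -1.69 (edgeR adjusted p = 0.0946), Sumo3 at -1.44 (adjusted p = 0.655) and Daxx at 1.99 (adjusted p = 0.574). The median untreated difference of the 5 was -1.43, against -1.01 over all loci.

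Across the 8 libraries, Sp140 and C130026I21Rik differed by a root mean square of 0.726 percentage points, Sp140 and A530040E14Rik by 2.05, and C130026I21Rik and A530040E14Rik by 1.76. Outside the neighbourhood, the loci most like Sp140 by this measure were Cyfip2 (0.553 points), Uroc1 (0.635) and Stpg2 (0.652). Those most like C130026I21Rik were Csmd3 (0.740), Ctnnd2 (0.741) and Mitf (0.751), and those most like A530040E14Rik were Wars2 (1.05), Spag17 (1.07) and Dpp9 (1.11). These genes lie on other chromosomes, and the measure is dominated by the difference between treated and untreated libraries that nearly all loci share.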

How the data were processed

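NOMe-seq libraries were compared in 4 groups of 2. The deposited files, on build mm10 per the submitters' processing notes, list 1 cytosine per line. For each, the authors deposited a methylated fraction (2 decimals) and a read count. Both units were read from the values: fraction times count was whole within rounding (tolerance 0.005 per read). No site had fewer than 3 reads, and 87.2 to 88.1% had exactly 3. The adapters carried molecular identifiers per the series text, while duplicate handling, aligner, caller and base context were not given in the sources used here. Base context was read from RefSeq promoter windows.

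Sites were assigned to RefSeq genes (GRCm38.p6) with 1000 bp either side. Methylated and unmethylated reads were summed per locus, and loci with 20 calls in every library were fitted in edgeR 4.0.16 (R 4.3.3) by quasi-likelihood over all 8 libraries, with a term per library and a methylation term per group. Benjamini-Hochberg adjustment ran over 5654 loci, and the threshold was 0.05. Standard errors were derived from the fold change and its F statistic. Limma 3.58.1 on log2((methylated + 1)/(unmethylated + 1)) was an alternative. Others were a replicate block, 5 reads per site, no flanks, 10 calls, shared sites, each site counted once, a limit of 100 reads per site and leaving out each library. Centring, and leaving out positions methylated in each untreated library, were added after the data were seen. Intervals are 95% Clopper-Pearson, and a limit at 0 is 3 reads. Promoters were aligned with Biopython 1.88. The fit was tested on simulated data over 5654 loci with 200 changed.

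The members and gene lists were chosen with earlier results of these data known. Genes named are the members, annotated genes of the neighbourhood with 20 calls in every library, listed nuclear body genes with 20 calls, and the 3 loci outside the neighbourhood nearest each member in level. Sp100 and the 2 singled-out positions fall outside this rule.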

Additional observations from a re-analysis of the deposited data

How the results depend on the processing

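The enzyme effect kept its direction at the 3 loci, and its call at Sp140 and C130026I21Rik, under limma, the replicate block, both depth limits per site, no flanks, 10 calls and each library left out. Centring on each library's median is the exception, as it subtracts most, but not all, of the enzyme effect common to all loci. The remainder on day 1 was 0.48 at Sp140, 0.45 at C130026I21Rik and 2.89 at A530040E14Rik, against a median of 0.74 over all loci. On day 0 it was 0.09, 0.33 and -0.27 in that order, against a median of 0.67. Neither Sp140 nor C130026I21Rik was called. With a minimum of 5 reads per site A530040E14Rik had under 20 calls in a library and could not be fitted, and 75 loci were tested. The treated day difference stayed uncalled at Sp140 and C130026I21Rik, but its sign is not fixed. Centred, it was -0.004 at Sp140 and -0.0071 at C130026I21Rik. Leaving out single libraries, it ran between -0.0065 and 0.17 at C130026I21Rik and between -0.30 and 0.16 at A530040E14Rik. The untreated call held at 2 of 2 loci (Sp140 and C130026I21Rik) as reported, at 1 in limma, at 0 with centring, which shrank the differences, at 0 with a minimum of 5 reads, where they stayed about as large, and at 0 to 2 when single libraries were left out. Over all loci the untreated comparison called 215 of 5654, against 946 of 5654 in limma and 12 of 5654 centred. With 5 reads per site it called 4 of only 75 loci tested, so that count is not comparable with the others. The net value was 0.39 at Sp140 and 0.11 at C130026I21Rik when centred, and without single libraries 0.90 to 1.94, 0.40 to 1.73 and 3.45 to 5.30 at Sp140, C130026I21Rik and A530040E14Rik in that order.

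Counting each site once gave 27.1% at Sp140 and 25.0% at A530040E14Rik for day 1 treated. A530040E14Rik moved further, to 23.3% with 5 reads per site, 22.6% without flanks and 24.0% on shared sites for day 1 treated, to 30.2% without flanks and 32.4% on shared sites for day 0 treated, and to 1.93% and 5.26% under the same settings for day 0 untreated. Differences from the neighbourhood changed sign readily, in treated libraries to 0.49 (each site once), 0.009 (no flanks) and 1.03 points (shared sites) at Sp140, 0.24 (each site once) at C130026I21Rik and 0.33 (no flanks) at A530040E14Rik, and in untreated libraries to -0.19 (5 reads) at C130026I21Rik and -0.29 (no flanks) at A530040E14Rik. Leaving out single libraries gave -0.98 to 0.46, -1.56 to 0.52 and -3.30 to 0.20 points treated, and -0.0142 to 0.46, -0.14 to 0.36 and -0.0802 to 0.69 untreated, in the order Sp140, C130026I21Rik, A530040E14Rik. Leaving out positions methylated in each untreated library moved no pooled level by more than the spread between replicates. The cause of these shifts was not tested.

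Replicate numbers are shared between groups in the labels, and whether same-numbered libraries were paired is not given. Locus by locus, their deviations were not correlated (r of -0.02 to 0.02 over 5654 loci). Counting noise at few calls also gives r near 0, and a shift of a whole library would not show. The check therefore cannot decide whether libraries were paired. With a replicate block 5646 and 5565 loci were called for the enzyme on day 1 and day 0. For the treated day difference 0 were called and for the untreated one 168, and no call at Sp140 or C130026I21Rik changed. Depth limits A530040E14Rik most, at 62 to 441 reads per library.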
